A study of Mus musculus with 16 samples.

Results

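A set of 10 genes of neutrophils was followed across 16 mouse melanoma tumours by bulk RNA sequencing. The members were every row of the deposited expression table whose gene name was S100a8, S100a9, Csf3r, Cxcr2, Retnlg, Ly6g, Lcn2, Cd177, Trem1 or Hdc, which gave 10 genes of the 54532 in the table. B16F10, a pigmented mouse melanoma line of the C57BL/6 strain, was grown under the skin of C57BL/6J mice of both sexes, 8 weeks old, and the tumours were collected at end stage. The groups were BdP tumours under cisplatin, BdP tumours under PBS, WT tumours under cisplatin and WT tumours under PBS, with 4 libraries each. BdP is a B16F10 derivative with low Pros1, described as Pros1-deficient in the titles and as a knockdown of that gene elsewhere in the labels. Pros1, the gene of protein S, encodes a ligand of the TAM receptors, and the hosts in all 4 groups carried no stated genetic change, so the lowered gene was that of the implanted cells. Cisplatin, a platinum drug that crosslinks DNA, was given by intraperitoneal injection (5 mg/kg a day for 3 days, in 2 rounds), starting 8 days after implantation, and the controls received PBS on the same schedule. The labels number the replicates and do not say whether they came from separate cages, days or clones, so each p-value below measures the spread between these tumours.

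Neutrophils are short-lived granulocytes that leave the bone marrow under granulocyte colony-stimulating factor and enter inflamed or injured tissue along chemokine gradients. Their cytosol is filled with calprotectin, a complex of the calcium-binding proteins S100a8 and S100a9, and their granules, made in sequence during maturation, hold proteases and antimicrobial proteins. In tumours they can kill cells, release proteases that remodel matrix or restrain T cells. Calprotectin is also made by monocytes, Lcn2 by epithelial cells and Hdc by mast cells and basophils, so no single gene here marks neutrophils alone except Ly6g, whose protein is the standard surface marker of mouse neutrophils.

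Expression was deposited as FPKM, fragments per kilobase of gene at a common sequencing depth, already scaled between libraries. Reads assigned to genes numbered 10051843 to 27055771 a library, and 79 to 1451 of them fell on the 10 members. The share of mitochondrial transcripts was 2.03% to 5.06% in 13 libraries, and it reached 12.2% in WT cisplatin 3, 21.7% in WT cisplatin 4 and 76.9% in WT PBS 1. WT PBS 1, the library with 79 member reads, therefore gave member values of the lowest precision, and each reading of a member there rested on 23 reads or fewer. Pros1 was at 1.73 to 2.52 FPKM in BdP tumours under cisplatin and 1.24 to 1.61 FPKM in BdP tumours under PBS, against 7.78 to 11.5 FPKM in WT tumours under cisplatin and 4.79 to 9.77 FPKM in WT tumours under PBS. Genes of melanoma cells marked all 16 libraries, with 4978 to 9013 FPKM summed over 9 genes such as Pmel and Tyrp1. In these bulk tumours, fewer cells of a type and less RNA per cell cannot be told apart.

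The members spanned a wide range of levels per kilobase, and the order was led by the calprotectin pair. Over the 16 tumours the mean was 20.6 ± 14.2 FPKM for S100a9 and 11.2 ± 6.83 FPKM for S100a8 (SD, n = 16). Retnlg followed at 3.37 ± 3.14, Csf3r at 2.40 ± 1.45 and Trem1 at 1.61 ± 1.06 FPKM, which did not differ beyond their spread. The remaining means were 0.496 ± 0.392 FPKM for Hdc, 0.390 ± 0.305 for Lcn2, 0.282 ± 0.291 for Cxcr2, 0.257 ± 0.238 for Cd177 and 0.0345 ± 0.0720 for Ly6g, of which the highest 4 overlapped within 1 SD. The 5 members S100a8, S100a9, Csf3r, Retnlg and Trem1 reached 1 FPKM in at least 4 libraries and entered the test over 12319 genes. The other 5 did not, and their values come from a second fit of 29405 genes without that filter. Counts are also given as reads, recovered from the deposited values.

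Ly6g, whose protein is the standard marker, had the lowest RNA level of the 10 members. Ly6g (ENSMUSG00000022582) was read 10 times in all 16 libraries together, was listed at 0 in 11 of them, and reached at most 0.271 FPKM, in WT cisplatin 4. Cd177 and Cxcr2, the receptor of the Cxcl1 and Cxcl2 chemokines, stayed below 1 FPKM in every tumour. The label of the gene set thus rests, in these tumours, on S100a8, S100a9, Retnlg, Csf3r and Trem1, and the defining marker Ly6g was near 0.

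S100a8 and S100a9 encode the subunits of calprotectin, which binds calcium, zinc and manganese and is released at sites of inflammation, where it acts on Tlr4. They lie on chromosome 3 with 22596 bases between them (GRCm38). S100a8 (ENSMUSG00000056054) spans 90668978 to 90670035 on the plus strand and S100a9 (ENSMUSG00000056071) spans 90692632 to 90695721 on the minus strand. Their promoter windows are shown because their levels moved together more closely than those of any other pair of members. Each runs from 250 bases before to 50 bases after the start that RefSeq gives on GRCm38.p6, 5′ to 3′ on the strand of the gene. Capitals mark TATAAA (the letters of a TATA box), TTNCNNAA (a core recognised by C/EBP factors) and GAGGAA. The last is a core recognised by PU.1, the product of Spi1. Each motif was searched on both strands.
S100a8 (chr3:90668821-90669120, plus strand): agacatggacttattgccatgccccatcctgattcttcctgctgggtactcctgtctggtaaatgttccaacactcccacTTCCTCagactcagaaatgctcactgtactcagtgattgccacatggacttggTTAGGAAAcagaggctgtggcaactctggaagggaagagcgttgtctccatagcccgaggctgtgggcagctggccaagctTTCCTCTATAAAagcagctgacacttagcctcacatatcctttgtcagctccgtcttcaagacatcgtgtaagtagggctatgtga
S100a9 (chr3:90695672-90695971, minus strand): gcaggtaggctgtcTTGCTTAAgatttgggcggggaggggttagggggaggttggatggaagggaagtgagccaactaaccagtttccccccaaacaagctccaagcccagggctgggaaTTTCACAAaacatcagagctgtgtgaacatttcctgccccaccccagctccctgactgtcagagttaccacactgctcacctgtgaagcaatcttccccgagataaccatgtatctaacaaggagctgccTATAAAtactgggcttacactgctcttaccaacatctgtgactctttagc

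Each of these windows held 1 TATAAA, which 13.62% of all 32851 RefSeq windows of this length held on either strand. TTNCNNAA was found at 1 place in the S100a8 window and 2 places in the S100a9 window, and in 40.68% of all windows. GAGGAA, present in 28.28% of all windows, was found at 2 places in the S100a8 window, on the reverse strand as TTCCTC, and was not found in the S100a9 window. The second of these places directly precedes the TATAAA of S100a8, so a single capital run shows both. The 10 members had 11 windows, Ly6g having more than 1. Of the 11 windows, GAGGAA was found in 8, TTNCNNAA in 8 and TATAAA in 5. Counted by member these were 7, 7 and 4 of 10. A match says only that these letters are in the window.

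S100a9 measured 6.78, 11.7, 17.3 and 15.1 FPKM in BdP tumours under cisplatin and 11.4, 27.7, 11.0 and 12.5 FPKM in BdP tumours under PBS. It measured 22.6, 27.2, 26.1 and 66.7 FPKM in WT tumours under cisplatin and 22.6, 22.0, 23.7 and 5.73 FPKM in WT tumours under PBS. Under cisplatin every BdP tumour lay below every WT tumour, while under PBS the genotypes overlapped. WT cisplatin 4 held more than any other tumour, with 409 reads, and WT PBS 4 the least, with 79 reads.

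S100a8 measured 4.83, 5.63, 13.0 and 8.95 FPKM in BdP tumours under cisplatin and 6.15, 12.1, 5.83 and 9.97 FPKM in BdP tumours under PBS. It measured 10.5, 13.9, 16.3 and 32.4 FPKM in WT tumours under cisplatin and 14.0, 8.88, 13.0 and 3.33 FPKM in WT tumours under PBS. The extremes were the same tumours as for S100a9, and only BdP cisplatin 3 reached into the range of WT tumours under cisplatin. The ratio of S100a9 to S100a8 FPKM stayed between 1.25 (BdP PBS 4) and 2.47 (WT PBS 2) while the level of S100a9 ran from 5.73 to 66.7 FPKM.

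**Figure D1:**
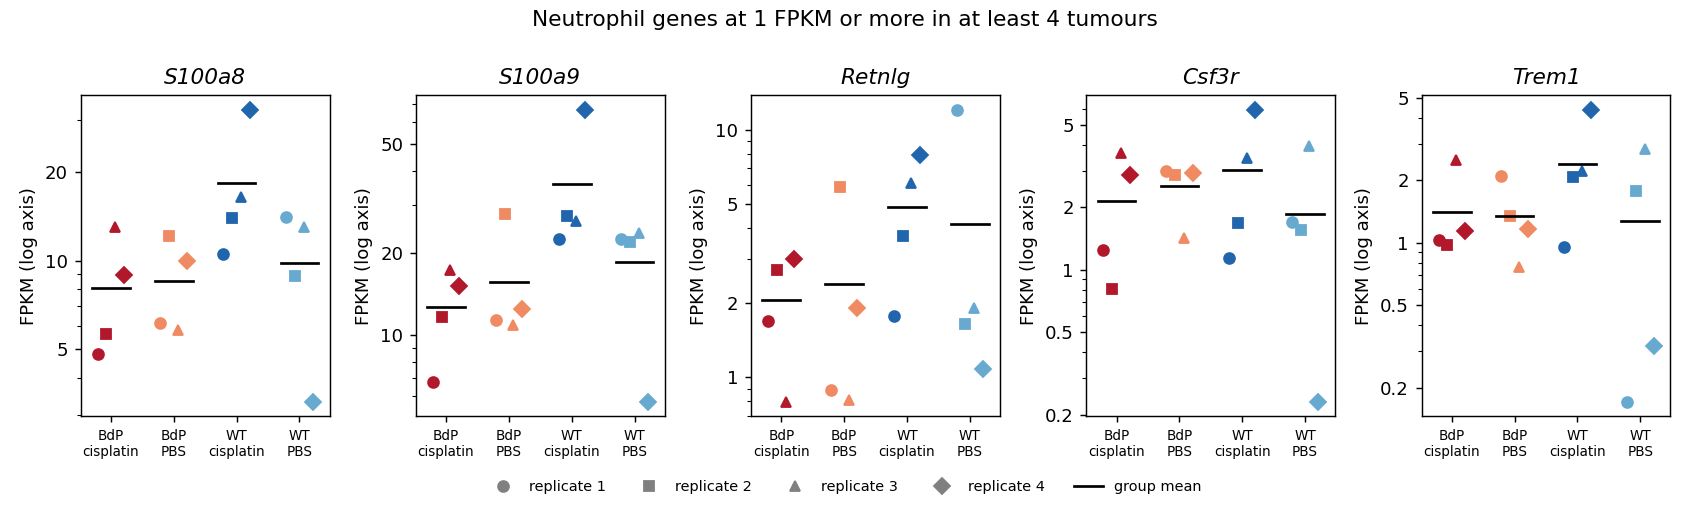
Levels of S100a8, S100a9, Retnlg, Csf3r and Trem1 in FPKM on a log axis, by group, with 1 point a tumour shaped by replicate number and a line at the group mean. For S100a9 the 4 BdP tumours under cisplatin (6.78 to 17.3 FPKM) lie below the 4 WT tumours under cisplatin (22.6 to 66.7 FPKM), and the other panels overlap.

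Csf3r and Trem1 are receptors. Csf3r (ENSMUSG00000028859, chromosome 4 from 126024550 to 126044440) encodes the receptor of granulocyte colony-stimulating factor, which drives the making and survival of neutrophils. Trem1 (ENSMUSG00000042265, chromosome 17 from 48232768 to 48246924) encodes an activating receptor of neutrophils and monocytes that signals through Tyrobp and amplifies inflammatory responses. It overlaps AC241601.2 on the other strand, and the counting is not stated to use strand, so reads of the overlap cannot be told apart. Their windows are shown because, over the 16 tumours, theirs was the closest correlation after that of S100a8 and S100a9.
Csf3r (chr4:126024409-126024708, plus strand): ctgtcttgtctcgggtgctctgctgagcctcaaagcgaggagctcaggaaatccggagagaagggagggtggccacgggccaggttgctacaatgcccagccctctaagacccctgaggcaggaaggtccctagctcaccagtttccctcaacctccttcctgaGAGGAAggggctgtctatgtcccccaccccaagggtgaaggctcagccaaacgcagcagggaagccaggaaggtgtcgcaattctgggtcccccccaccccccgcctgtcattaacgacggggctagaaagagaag
Trem1 (chr17:48232489-48232788, plus strand): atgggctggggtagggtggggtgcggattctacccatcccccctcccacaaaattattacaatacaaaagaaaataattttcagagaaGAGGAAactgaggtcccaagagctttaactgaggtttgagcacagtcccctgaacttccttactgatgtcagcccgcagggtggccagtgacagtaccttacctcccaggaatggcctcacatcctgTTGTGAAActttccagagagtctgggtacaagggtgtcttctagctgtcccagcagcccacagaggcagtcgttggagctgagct

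Both windows held 1 GAGGAA and neither held TATAAA, and the Trem1 window also held 1 TTNCNNAA, on the reverse strand. Csf3r measured 1.24, 0.806, 3.66 and 2.86 FPKM in BdP tumours under cisplatin and 2.99, 2.85, 1.42 and 2.92 FPKM in BdP tumours under PBS. It measured 1.14, 1.67, 3.45 and 5.92 FPKM in WT tumours under cisplatin and 1.70, 1.56, 3.97 and 0.231 FPKM in WT tumours under PBS. All 4 groups overlapped, and the widest range was in WT tumours.

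Trem1 measured 1.02, 0.970, 2.49 and 1.14 FPKM in BdP tumours under cisplatin and 2.10, 1.34, 0.762 and 1.17 FPKM in BdP tumours under PBS. It measured 0.950, 2.08, 2.21 and 4.38 FPKM in WT tumours under cisplatin and 0.171, 1.77, 2.83 and 0.316 FPKM in WT tumours under PBS. The groups overlapped, and the value in WT PBS 1 came from 1 read. Cxcr2 (ENSMUSG00000026180, chromosome 1 from 74153989 to 74161246), through which neutrophils follow chemokines, ran from 0.0411 to 0.539 FPKM in BdP tumours under cisplatin and from 0 to 0.359 FPKM in BdP tumours under PBS. It ran from 0.0633 to 0.643 FPKM in WT tumours under cisplatin and from 0 to 0.840 FPKM in WT tumours under PBS, with 255 reads in all 16 libraries.

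Retnlg, Lcn2 and Hdc encode a secreted or enzymatic product. Retnlg (ENSMUSG00000022651, chromosome 16 from 48872621 to 48874496), a resistin-like secreted protein abundant in mature mouse neutrophils, measured 1.69, 2.71, 0.796 and 3.00 FPKM in BdP tumours under cisplatin and 0.893, 5.90, 0.810 and 1.91 FPKM in BdP tumours under PBS. It measured 1.76, 3.72, 6.10 and 7.90 FPKM in WT tumours under cisplatin and 12.1, 1.65, 1.91 and 1.09 FPKM in WT tumours under PBS. The highest value, in WT PBS 1, came from 14 reads, whereas the next, in WT cisplatin 4, came from 55.

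Lcn2 (ENSMUSG00000026822, chromosome 2 from 32384633 to 32388252), a granule protein that withholds iron from bacteria by binding their siderophores, measured 0.167, 0.232, 0.288 and 0.157 FPKM in BdP tumours under cisplatin and 0, 0.531, 0.229 and 0.485 FPKM in BdP tumours under PBS. It measured 0.522, 0.296, 1.27 and 0.454 FPKM in WT tumours under cisplatin and 0.781, 0.303, 0.432 and 0.101 FPKM in WT tumours under PBS. Under cisplatin each BdP tumour lay below each WT tumour, with 9 to 16 reads in BdP tumours and 14 to 69 reads in WT tumours. The closest values, 0.288 FPKM in BdP cisplatin 3 and 0.296 FPKM in WT cisplatin 2, rested on 16 and 19 reads.

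Hdc (ENSMUSG00000027360, chromosome 2 from 126593667 to 126619299), the enzyme that makes histamine, measured 0.314, 0.448, 0.362 and 0.657 FPKM in BdP tumours under cisplatin and 0.492, 0.0726, 0.313 and 0.326 FPKM in BdP tumours under PBS. It measured 0.400, 0.830, 0.710 and 1.61 FPKM in WT tumours under cisplatin and 0.0801, 0.172, 0.949 and 0.201 FPKM in WT tumours under PBS. The groups overlapped, and 3 of the 4 WT tumours under PBS lay at 0.201 FPKM or below.

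Cd177 (ENSMUSG00000052212, chromosome 7 from 24743983 to 24760311) encodes a surface glycoprotein of neutrophils. It ran from 0.107 to 0.466 FPKM in BdP tumours under cisplatin and from 0.0987 to 0.817 FPKM in BdP tumours under PBS. It ran from 0.0510 to 0.420 FPKM in WT tumours under cisplatin and from 0 to 0.620 FPKM in WT tumours under PBS. Cd177 was the 1 member with a higher mean in BdP tumours under cisplatin. Its mean was 1.96 times as high in BdP as in WT tumours under cisplatin, with overlapping values (exact two-sided permutation p = 0.229). Ly6g (chromosome 15 from 75155240 to 75159126) had 5 reads in BdP tumours under cisplatin, 1 read in BdP tumours under PBS, 4 reads in WT tumours under cisplatin and 0 reads in WT tumours under PBS. These counts are too few to compare.

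**Figure D2:**
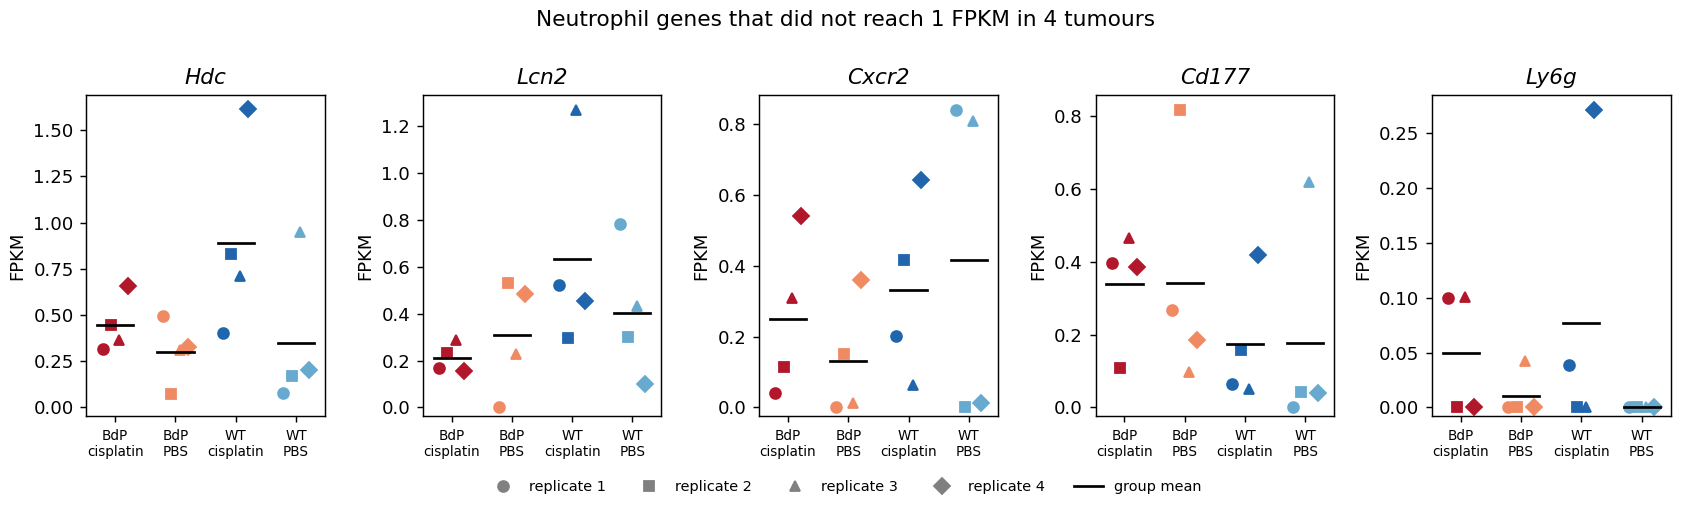
Levels of Hdc, Lcn2, Cxcr2, Cd177 and Ly6g in FPKM on linear axes, by group, with 1 point a tumour shaped by replicate number and a line at the group mean. For Lcn2 the 4 BdP tumours under cisplatin (0.157 to 0.288 FPKM) lie just below the 4 WT tumours under cisplatin (0.296 to 1.27 FPKM), and Ly6g is at 0 in 11 of 16 tumours.

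Whether low Pros1 in the tumour cells went with a different neutrophil signature under the drug was read from BdP against WT tumours under cisplatin. Means were lower in BdP tumours for 9 of the 10 members, Cd177 being the exception, and 0 of the 5 tested passed over all genes. S100a9 averaged 12.7 ± 4.58 FPKM in BdP tumours and 35.6 ± 20.8 FPKM in WT tumours (SD, n = 4 each), a ratio of means of 0.357. S100a8 averaged 8.10 ± 3.72 FPKM in BdP tumours and 18.3 ± 9.69 FPKM in WT tumours, a ratio of 0.443. Lcn2 averaged 0.211 ± 0.0612 FPKM in BdP tumours and 0.635 ± 0.433 FPKM in WT tumours, a ratio of 0.332, and Retnlg averaged 2.05 ± 1.01 FPKM in BdP tumours and 4.87 ± 2.69 FPKM in WT tumours, a ratio of 0.421.

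Taken alone, the exact two-sided permutation test gave p = 0.0286 for S100a9 and for Lcn2, the smallest that 4 against 4 allows, and p = 0.0571 for S100a8. These were among 40 such tests (10 members in 4 comparisons) and are not adjusted. In limma over all genes, the log2 fold change on the log2(FPKM + 1) scale was -1.35 ± 0.45 for S100a9 (SE, adjusted p = 0.202) and -1.05 ± 0.41 for S100a8 (adjusted p = 0.285). Retnlg was at -0.88 ± 0.56, Trem1 at -0.45 ± 0.38 and Csf3r at -0.32 ± 0.43, with adjusted p of 0.51 to 0.794. Limma called 0 of the 5 members tested, against 1.07% of all genes tested, and 2 of the 5 had an unadjusted p below 0.05, against 13.8% of all genes. Voom on the recovered reads also called 0, against 1.88% of all genes. Csf3r and Trem1 rested on single tumours, at -0.0096 and -0.20 without WT cisplatin 4 and at -0.57 and -0.69 without WT cisplatin 1, and Csf3r was at -0.19, -0.087 and -0.54 without BdP cisplatin 1, 2 or 3.

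Without the filter, 9 of the 10 members were negative in this comparison, with a median log2 fold change of -0.38, against a median of 0 over 29405 genes. S100a8, S100a9 and Lcn2 had an unadjusted p below 0.05, where 8.66% of all genes did. S100a9 and Lcn2 were the 2 members whose groups did not overlap, both lower in BdP tumours, against 3.53% of all genes that were lower in BdP tumours without overlap. No member was higher in BdP tumours without overlap, against 3.34% of all genes. Without WT cisplatin 3 and 4 and WT PBS 1, the libraries richest in mitochondrial reads, the change was -0.98 ± 0.53 for S100a9 (adjusted p = 0.435), -0.62 ± 0.46 for S100a8 and 0.29 ± 0.50 for Csf3r. With libraries weighted by their quality, S100a9 was at -1.30 ± 0.36 (adjusted p = 0.0427), in a fit that called 7.65% of all genes tested (943 genes, against 132 without weights).

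**Figure D3:**
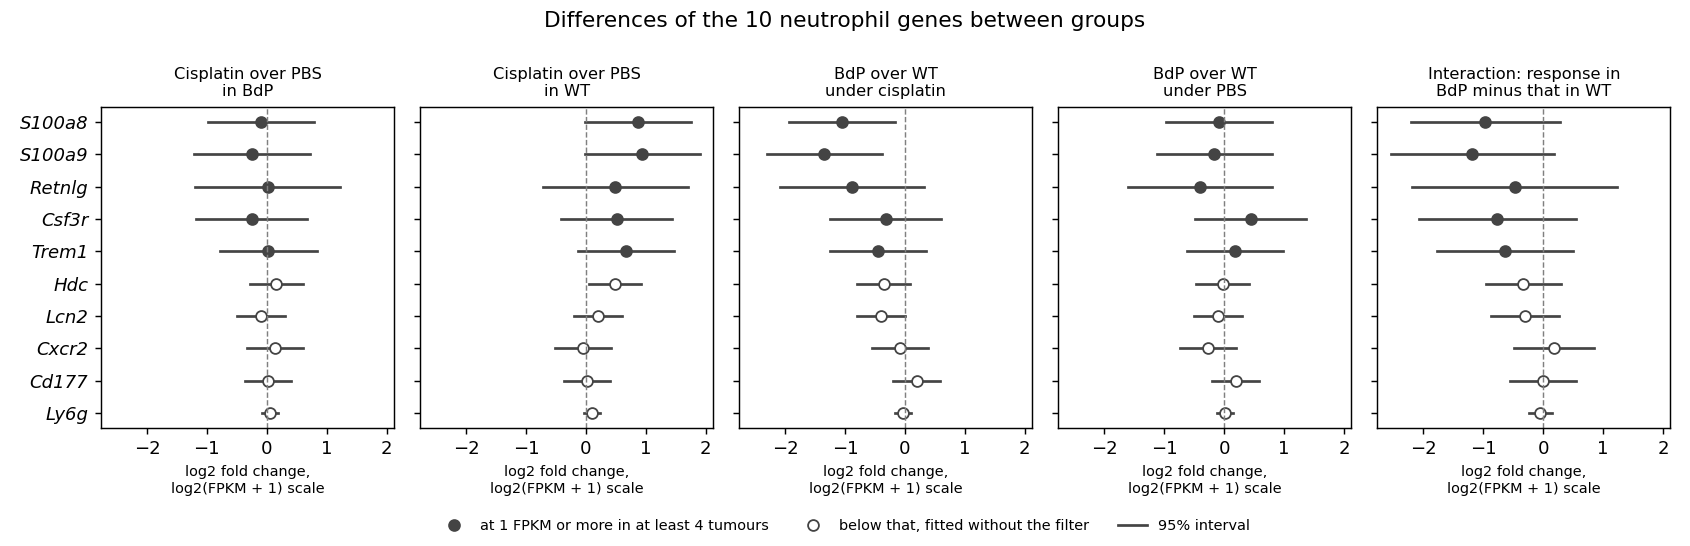
Log2 fold changes of the 10 members on the log2(FPKM + 1) scale in 5 comparisons, with 95% intervals from limma. Filled points are the 5 members tested with the filter and open points the 5 fitted without it. The intervals of S100a8 and S100a9 lie below 0 for BdP over WT under cisplatin and cross 0 in the other 4 panels. Among the open points, Lcn2 (-0.80 to -0.0016) also lies below 0 for BdP over WT under cisplatin. Hdc (0.047 to 0.93) lies above 0 for cisplatin over PBS in WT tumours.

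Under PBS the genotypes overlapped for all 10 members. S100a9 averaged 15.6 ± 8.07 FPKM in BdP tumours and 18.5 ± 8.54 FPKM in WT tumours, and S100a8 averaged 8.51 ± 3.04 FPKM in BdP tumours and 9.81 ± 4.86 FPKM in WT tumours (SD, n = 4 each). Csf3r averaged 2.54 ± 0.751 FPKM in BdP tumours and 1.86 ± 1.55 FPKM in WT tumours. In limma the log2 fold changes were -0.16 ± 0.45 for S100a9, -0.09 ± 0.41 for S100a8, -0.40 ± 0.56 for Retnlg, 0.19 ± 0.38 for Trem1 and 0.45 ± 0.43 for Csf3r, with adjusted p of 0.57 or above. The 95% interval for S100a9 ran from -1.12 to 0.80. The signs of S100a8 and S100a9 turned in TPM, to 0.83 and 0.79, while the median of all genes shifted by 0.82.

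Limma called 0 of the 5 members under PBS, against 0.99% of all genes tested, and 0 had an unadjusted p below 0.05, against 19.3% of all genes. Voom on the recovered reads called 0, against 0.998% of all genes. Of the 10 members, 4 were positive and 6 negative without the filter, with a median of -0.06 against 0 over all genes, and 0 had an unadjusted p below 0.05 there, against 10.8% of all genes. Without overlap, 1.93% of all genes were higher and 2.11% lower in BdP tumours, and 0 of the 10 members were. Retnlg depended on 1 library, with a value of 0.19 without WT PBS 1.

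The response to cisplatin was asked within each genotype. In BdP tumours no member differed beyond the spread between tumours. S100a9 averaged 12.7 ± 4.58 FPKM under cisplatin and 15.6 ± 8.07 FPKM under PBS, S100a8 averaged 8.10 ± 3.72 FPKM under cisplatin and 8.51 ± 3.04 FPKM under PBS, and Trem1 averaged 1.41 ± 0.726 FPKM under cisplatin and 1.34 ± 0.559 FPKM under PBS. The log2 fold changes lay between -0.25 ± 0.43 (Csf3r) and 0.03 ± 0.38 (Trem1), with an adjusted p of 1 for each of the 5. Limma and voom called 0 of 5, against 0% of all genes in both, and 0 had an unadjusted p below 0.05, against 4.4% of all genes. Of the 10 members, 6 were positive and 4 negative without the filter, with a median of 0.02 against 0 over all genes, and 0 had an unadjusted p below 0.05 there, against 4.02% of all genes. The treatments overlapped for all 10, while 1.3% of all genes were higher and 1.07% lower under cisplatin without overlap.

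In WT tumours the means were higher under cisplatin for 8 of the 10 members, with wide spread. S100a9 averaged 35.6 ± 20.8 FPKM under cisplatin and 18.5 ± 8.54 FPKM under PBS, a ratio of 1.93. S100a8 averaged 18.3 ± 9.69 FPKM under cisplatin and 9.81 ± 4.86 FPKM under PBS, a ratio of 1.87, and Trem1 averaged 2.40 ± 1.43 FPKM under cisplatin and 1.27 ± 1.27 FPKM under PBS, a ratio of 1.89. Hdc averaged 0.888 ± 0.516 FPKM under cisplatin and 0.351 ± 0.402 FPKM under PBS, a ratio of 2.53. Means of Cxcr2 and Cd177 were lower under cisplatin.

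The WT groups overlapped for all 10 members, while 1.23% of all genes were higher and 0.786% lower under cisplatin without overlap, and the smallest exact two-sided permutation p was 0.0571, for S100a9. In limma the log2 fold change was 0.94 ± 0.45 for S100a9 and 0.87 ± 0.41 for S100a8 (adjusted p = 0.641 for each), 0.67 ± 0.38 for Trem1 (adjusted p = 0.659), 0.52 ± 0.43 for Csf3r and 0.49 ± 0.56 for Retnlg. Limma called 0 of the 5, against 0.00812% of all genes tested, and 0 had an unadjusted p below 0.05, against 7.74% of all genes. Voom called 0, against 0.0244% of all genes. Without the filter 9 of 10 were positive, with a median of 0.49 against 0 over all genes, and Hdc alone had an unadjusted p below 0.05, where 5.55% of all genes did.

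This comparison rested on few tumours. Without WT PBS 4 the log2 fold change was 0.49 for S100a9, 0.48 for S100a8, 0.16 for Csf3r and 0.20 for Retnlg. Without WT cisplatin 4 it was 0.60 for S100a9, 0.56 for S100a8, 0.21 for Csf3r, 0.25 for Retnlg and 0.41 for Trem1, and without the 3 libraries richest in mitochondrial reads it was 0.72 for S100a9, 0.64 for S100a8, 0.03 for Trem1 and -0.06 for Csf3r. Without WT PBS 1 alone, Retnlg was at 1.09 and Trem1 at 0.41. Retnlg was also at 0.81 without WT cisplatin 1 and 0.32 without WT PBS 2, and Csf3r at 0.84 without WT PBS 3.

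The interaction, the response in BdP tumours minus that in WT tumours, asked whether the drug response itself differed. It was -1.19 ± 0.64 for S100a9 and -0.96 ± 0.59 for S100a8 (limma, adjusted p = 0.835 for each), -0.76 ± 0.61 for Csf3r, -0.64 ± 0.53 for Trem1 and -0.48 ± 0.80 for Retnlg. Limma and voom called 0 of 5, against 0% of all genes in limma and 0.00812% in voom, and 0 of 5 had an unadjusted p below 0.05, against 5.61% of all genes. Of the 10 members, 8 were negative without the filter, with a median of -0.40 against -0.01 over all genes, and 0 had an unadjusted p below 0.05 there, against 3.97% of all genes. Single tumours moved these values: without WT PBS 4 the interaction was -0.73 for S100a9, -0.57 for S100a8 and -0.41 for Csf3r, and without WT cisplatin 4 it was -0.46 for Csf3r and -0.39 for Trem1. Retnlg ran from -1.07 without WT PBS 1 to -0.056 without BdP PBS 2, and Trem1 was at -0.38 without WT PBS 1. Trem1 was at 0.002 without the 3 libraries richest in mitochondrial reads. These comparisons share groups: the same WT tumours under cisplatin enter the genotype comparison under the drug, the response in WT tumours and the interaction.

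A few tumours held the extremes of the set. WT cisplatin 4 had the highest value of 6 members (S100a8, S100a9, Csf3r, Ly6g, Trem1 and Hdc), WT PBS 1 of 2 (Cxcr2 and Retnlg), BdP PBS 2 of Cd177 and WT cisplatin 3 of Lcn2. Summed over the 10 members, the level ran from 16.6 to 38.7 FPKM in BdP tumours under cisplatin and from 20.5 to 51.5 FPKM in BdP tumours under PBS. It ran from 38.2 to 120.7 FPKM in WT tumours under cisplatin and from 11.0 to 52.2 FPKM in WT tumours under PBS. The genotypes nearly separated under cisplatin, at 38.7 FPKM in BdP cisplatin 3 and 38.2 FPKM in WT cisplatin 1, and the calprotectin genes made up most of each sum.

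The members varied together across the tumours in part. Of the 45 pairs, 39 had a positive Spearman's rho on log2(FPKM + 1), with a median of 0.356. Correlations were tested in a family of 95 relations (the pairs, and each member with 5 lists of other cells) by permutation with 100000 resamples. S100a8 and S100a9 had Pearson's r of 0.948 (permutation p = 1e-05, the smallest these resamples can give, adjusted p = 0.00095) and rho of 0.885 (permutation p = 2e-05, adjusted p = 0.0019). Without WT cisplatin 4 and WT PBS 4, the tumours farthest from the median of S100a8, r was 0.881, and with the group means removed it was 0.923.

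Csf3r and Trem1 had r of 0.781 (permutation p = 0.00035, adjusted p = 0.0133) and rho of 0.826 (permutation p = 0.00014, adjusted p = 0.00665), with r of 0.611 without WT PBS 4 and WT cisplatin 4. S100a8 and Csf3r had r of 0.774 (permutation p = 0.00053, adjusted p = 0.0133) and rho of 0.7 (permutation p = 0.00308, adjusted p = 0.0488), with r of 0.532 without the same tumours. Lcn2 followed S100a8 and S100a9 with rho of 0.741 for each (permutation p = 0.00155 and 0.00171, adjusted p = 0.0406 for each), while r was 0.638 with S100a8 and 0.566 with S100a9 (permutation p = 0.00931 and 0.0248, adjusted p = 0.0581 and 0.109). With the group means removed, r of Lcn2 was 0.492 with S100a8 and 0.353 with S100a9 (permutation p = 0.102 and 0.258, adjusted p = 0.242 and 0.454). On that measure r was 0.784 for Csf3r with Trem1 and 0.875 for S100a8 with Csf3r (permutation p = 0.00172 and 0.00036, adjusted p = 0.035 and 0.0114). Without removing group means, pairs with an adjusted p below 0.05 numbered 5 by rho, 8 by r and 3 by both. Ly6g, with values above 0 in 5 tumours, and Cd177 tracked S100a8 least, with rho of 0.06 and 0.17.

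**Figure D4:**
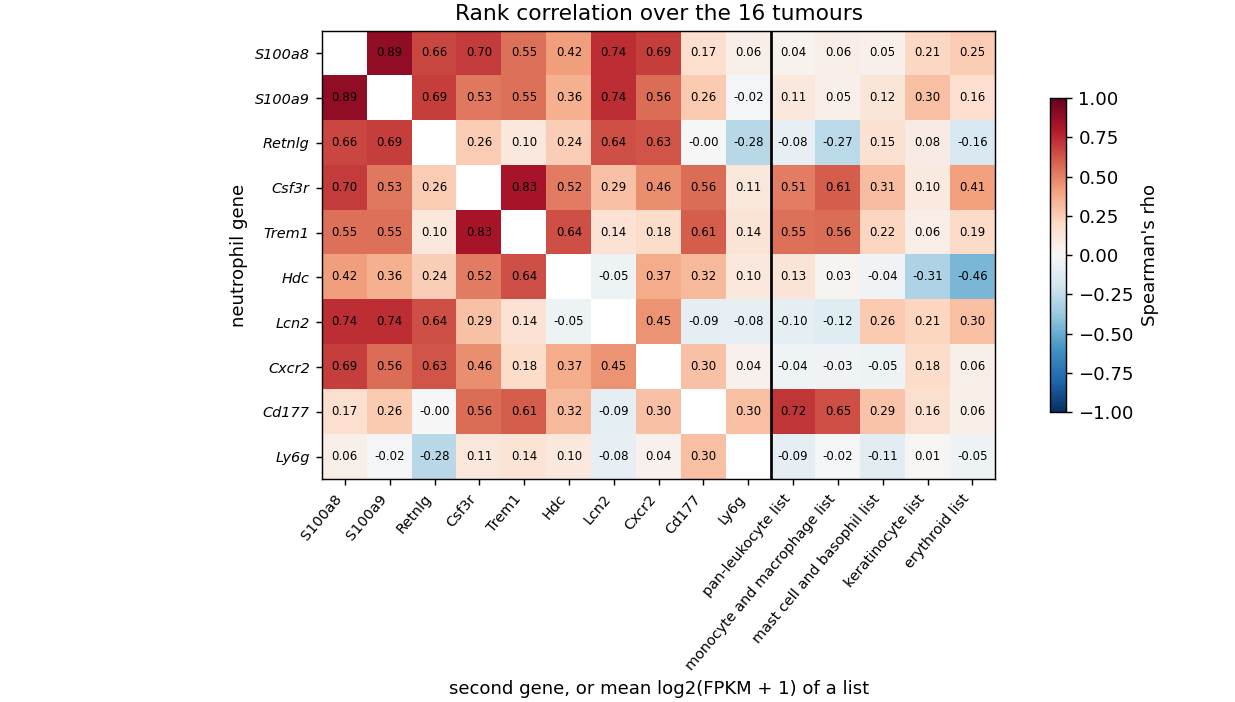
Spearman's rho over the 16 tumours between each of the 10 members and, left of the black line, each other member or, right of it, the mean log2(FPKM + 1) of a marker list of other cells. S100a8 and S100a9 stand out at 0.89 and Csf3r with Trem1 at 0.83, while S100a8 and S100a9 are near 0 with the pan-leukocyte and the monocyte and macrophage lists before group means are removed.

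The members were set against genes of leukocytes as a whole. Over the 16 tumours rho with a list of 8 pan-leukocyte genes was 0.04 for S100a8 and 0.11 for S100a9, and 0.51 for Csf3r, 0.55 for Trem1 and 0.72 for Cd177. Cd177 was the 1 member that passed there (r = 0.712, permutation p = 0.002, adjusted p = 0.038, and rho with permutation p = 0.00243, adjusted p = 0.0462), with r of 0.590 without BdP PBS 2 and WT PBS 3 and 0.650 with the group means removed (permutation p = 0.0298, adjusted p = 0.136). With the group means removed, r with the pan-leukocyte list was 0.778 for Csf3r (permutation p = 0.00221, adjusted p = 0.035) and 0.812 for Trem1 (permutation p = 0.0033, adjusted p = 0.0448). On that measure r was 0.628 for S100a8 (permutation p = 0.0313, adjusted p = 0.136) and 0.675 for S100a9 (permutation p = 0.0195, adjusted p = 0.121), against 0.177 and 0.153 over the 16 tumours without removing group means. With the list of 12 monocyte and macrophage genes it was 0.857 for Csf3r (permutation p = 0.00033, adjusted p = 0.0114) and 0.825 for Trem1 (permutation p = 0.00188, adjusted p = 0.035), and 0.667 for S100a8 and 0.639 for S100a9 (permutation p = 0.0222 and 0.0302, adjusted p = 0.121 and 0.136). Differences between members in these correlations were not tested.

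Between genotypes under cisplatin, the leukocyte lists had positive differences where the calprotectin genes had negative ones. Under PBS the differences of the calprotectin genes were smaller than their SE (-0.09 ± 0.41 for S100a8 and -0.16 ± 0.45 for S100a9). All 8 pan-leukocyte genes had a positive log2 fold change for BdP over WT under cisplatin, with a median of 1.48, and 7 of 8 did under PBS, with a median of 1.40. Their summed level ran from 324 to 640 FPKM in BdP tumours under cisplatin, against 177 to 341 FPKM in WT tumours under cisplatin. All 12 monocyte and macrophage genes were positive as well, with a median of 0.75 under cisplatin and 0.58 under PBS, and all 9 T cell genes, with a median of 1.55 under cisplatin and 1.28 under PBS. Limma called 0 genes of these lists in every comparison, and for BdP over WT under cisplatin an unadjusted p was below 0.05 in 1 of the 8, 2 of the 12 and 3 of the 9, against 13.8% of all genes. Over all 12319 genes tested the median log2 fold change lay between -0.0060 and 0.011 in the 5 comparisons. The part of these cells in the member results was not tested.

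Set against Ptprc, the gene of the pan-leukocyte surface protein CD45, the genotypes lay apart under the drug. The S100a9 to Ptprc ratio of FPKM was 2.41, 0.803, 1.53 and 2.27 in BdP tumours under cisplatin and 1.01, 1.33, 5.39 and 2.37 in BdP tumours under PBS. It was 44.1, 32.5, 3.79 and 28.7 in WT tumours under cisplatin and 23.1, 9.20, 2.86 and 30.1 in WT tumours under PBS. Every BdP tumour under cisplatin lay below every WT tumour under cisplatin, and under PBS BdP PBS 3 lay within the WT range. Ptprc itself was at 2.82, 14.6, 11.3 and 6.66 FPKM in BdP tumours under cisplatin, against 0.512, 0.838, 6.88 and 2.33 FPKM in WT tumours under cisplatin. The ratio is a description, since its denominator differed between genotypes too.

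**Figure D5:**
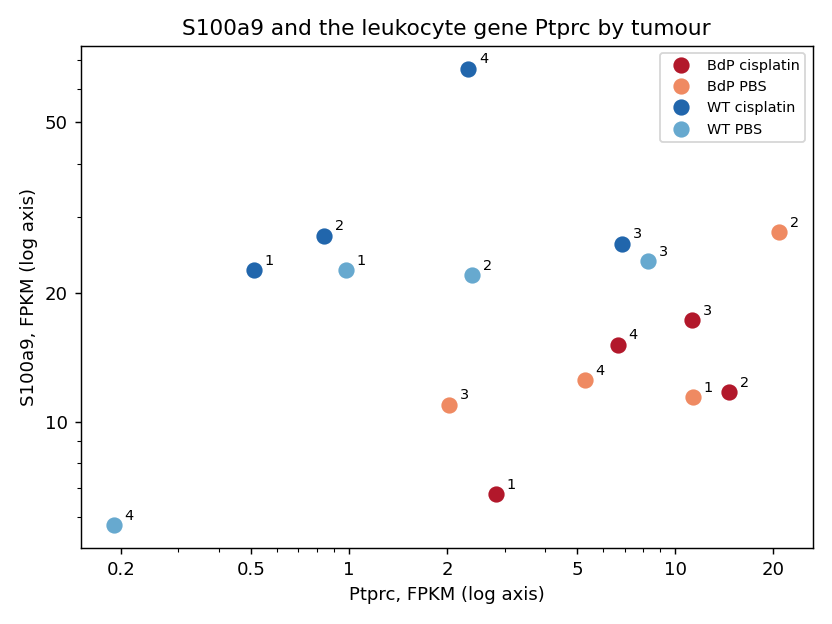
S100a9 against Ptprc in FPKM, both on log axes, with 1 point a tumour coloured by group and numbered by replicate. BdP tumours under cisplatin lie at 2.82 to 14.6 FPKM of Ptprc with at most 17.3 FPKM of S100a9, and 3 of the 4 WT tumours under cisplatin lie at 0.512 to 2.33 FPKM of Ptprc with at least 22.6 FPKM of S100a9.

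Other cells that express single members were looked for by their own markers. Of 7 eosinophil genes, 0 passed the filter and their summed level was at most 1.06 FPKM in any tumour. The 12 keratinocyte genes would mark skin with its own S100a8, S100a9 and Lcn2. Krt6a was at 0 in all 16 tumours, and Krt5, Krt15, Krt1, Dsg3 and Sprr1b at 0 in 15. Krt14 was at 0 in 14, Krt16 and Trp63 in 13, Krt17 in 11 and Krt10 in 7. Dsp was above 0 throughout, at 0.0329 to 0.239 FPKM. The highest values of Krt14 and Sprr1b were 1.75 and 1.23 FPKM. The summed level of the 12 genes was at most 0.270 FPKM in BdP tumours under cisplatin and 0.638 FPKM in BdP tumours under PBS. It was at most 0.250 FPKM in WT tumours under cisplatin. Under PBS it was 0.186 to 0.324 FPKM in WT PBS 2, 3 and 4 and 4.41 FPKM in WT PBS 1. Of 10 mast cell and basophil genes, relevant to Hdc, the defining genes Cpa3, Fcer1a, Ms4a2 and Mcpt8 were below 1 FPKM throughout and at 0 in 7, 12, 15 and 12 tumours. Hpgds, a prostaglandin synthase that macrophages also express, was the 1 mast cell and basophil gene past the filter, and the summed level of these 10 genes was 8.60 to 12.6 FPKM in BdP tumours given cisplatin, 9.83 to 14.6 FPKM in those given PBS, 7.24 to 9.01 FPKM in WT tumours under cisplatin and 6.61 to 11.5 FPKM in WT tumours under PBS. Erythroid genes, which mark blood, had rho of -0.46 (Hdc) to 0.41 (Csf3r) with the members. With the group means removed, r with the erythroid list ran from -0.03 (Hdc) to 0.642 (S100a8, permutation p = 0.0131, adjusted p = 0.106). It was 0.610 for Csf3r and 0.563 for S100a9 on that measure, and 0 of the 10 members had an adjusted p below 0.05. The part of blood in the member values was not tested.

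The rest of the neutrophil programme was described by lists. Genes of the primary and secondary granules, which are transcribed in the marrow before neutrophils leave it, were uneven in level. Mpo was at 0 in 13 of 16 tumours, Elane in 10, Prtn3 in 9, Ctsg in 11, Camp in 14 and Ltf in 2, with at most 2.08 FPKM for Elane and 1.44 FPKM for Ltf. Mmp8, a collagenase, averaged 3.89 FPKM over the 16 tumours, from 0.140 to 12.2 FPKM, and Pglyrp1, which binds bacterial peptidoglycan, averaged 2.47 FPKM, from 0 to 9.28 FPKM. Of the 15 granule genes 4 passed the filter, Mmp8, Mmp9, Chil3 and Pglyrp1, and limma called 0 of the 4 in every comparison. For BdP over WT under cisplatin 3 of the 4 were positive and 1 negative, with a median of 0.33, unlike the tested members. Pglyrp1 was at 1.20 ± 0.64 there (limma, adjusted p = 0.421), and 0 of the 4 had an unadjusted p below 0.05, against 13.8% of all genes. Without the filter 7 of the 15 were positive, with a median of -0.0070. The smallest p in that list was that of Chil3, a chitinase-like protein that macrophages also make, with 11.7 ± 7.20 FPKM in BdP tumours under cisplatin and 3.39 ± 2.57 FPKM in BdP tumours under PBS (log2 fold change 1.49 ± 0.62, adjusted p = 1).

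Of 20 further genes of mature neutrophils, 12 were tested and limma called 0 in every comparison. For cisplatin over PBS in WT tumours 11 of the 12 were positive, with a median of 0.49 and 2 at an unadjusted p below 0.05, against 7.74% of all genes. For BdP over WT 8 of 12 were negative under cisplatin, with a median of -0.18 and 1 at an unadjusted p below 0.05 (13.8% of all genes), and 9 of 12 positive under PBS, with a median of 0.28. Asprv1, a retroviral-like aspartic protease, had the smallest p, with 0.411 ± 0.221 FPKM in BdP tumours under cisplatin and 1.54 ± 0.557 FPKM in WT tumours under cisplatin (log2 fold change -0.83 ± 0.24, adjusted p = 0.133). Stfa2l1, a stefin with near-identical copies that make its reads uncertain, was at 1.03 ± 0.625 FPKM in BdP tumours under cisplatin and 0.0239 ± 0.0478 FPKM in BdP tumours under PBS (log2 fold change 0.93 ± 0.32, adjusted p = 1).

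The ligands of the member receptors were uneven in level. Csf3, the ligand of Csf3r, stayed below 1 FPKM in all tumours and was listed at 0 in 5, and Cxcl5 at 0 in 7. Cxcl2, a ligand of Cxcr2, averaged 49.6 ± 33.1 FPKM in BdP tumours under cisplatin, 95.9 ± 73.1 FPKM in BdP tumours under PBS, 87.3 ± 57.3 FPKM in WT tumours under cisplatin and 31.1 ± 26.4 FPKM in WT tumours under PBS. Of the 15 growth factors and attractants 8 were tested. For these 8 the log2 fold change was positive in all for cisplatin over PBS in WT tumours (median 1.18) and negative in all for the same comparison in BdP tumours (median -0.74). For BdP over WT the 8 were negative under cisplatin (median -0.68) and positive under PBS (median 1.51), and 8 of 8 were negative in the interaction (median -2.00).

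None of the 8 passed in limma in any comparison, with 3 at an unadjusted p below 0.05 in the interaction (5.61% of all genes) and 4 for BdP over WT under PBS (19.3% of all genes). Cxcl1, another ligand of Cxcr2, had the smallest p in the interaction, at -2.24 ± 0.95 (adjusted p = 0.835). It averaged 5.03 ± 2.75 FPKM in BdP tumours under cisplatin, 13.4 ± 13.5 FPKM in BdP tumours under PBS, 10.4 ± 8.34 FPKM in WT tumours under cisplatin and 3.16 ± 2.08 FPKM in WT tumours under PBS. The interleukin gene Il1a was at 1.60 ± 0.72 and Cxcl2 at 1.88 ± 0.80 for BdP over WT under PBS (adjusted p = 0.245 and 0.221).

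Transcription factors of the lineage were detected in part. Of 8, limma tested 4 and called 0 in every comparison. Cebpb, which sustains granulocyte production in inflammation, averaged 22.6 ± 12.3 FPKM in BdP tumours under cisplatin and 17.1 ± 8.68 FPKM in WT tumours under cisplatin, and Cebpe, needed for secondary granules, stayed below 1 FPKM throughout. All 4 tested were positive for BdP over WT, with a median of 0.56 under cisplatin and 1.13 under PBS. Cebpd had the smallest p, at 0.80 ± 0.25 under PBS (adjusted p = 0.131). Of the receptors of the secreted members, Tlr4, which binds calprotectin, ran from 1.84 to 6.47 FPKM. Ager, another receptor of calprotectin, was at 0 in 3 tumours and at most at 1.07 FPKM, and Slc22a17, the Lcn2 receptor, ran from 0.0836 to 0.750 FPKM. Of the 7 genes listed around Trem1 signalling, which include the related receptor genes Trem2, Treml2 and Treml4, all were tested and none called. For BdP over WT 7 of 7 were positive under cisplatin (median 0.69) and under PBS (median 0.97, Syk at 1.34 ± 0.53, limma adjusted p = 0.193). Trem1 itself was at -0.45 ± 0.38 under cisplatin and 0.19 ± 0.38 under PBS.

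The genes most like the set were found by ranking all tested genes by rho, over the 16 tumours, with the mean log2(FPKM + 1) of the 10 members. Mmp9, a gelatinase of neutrophil granules, came highest with rho of 0.847 and a level of 0.171 to 2.31 FPKM. Nub1 (0.821), Gm28437 (0.797), Hp (0.797), Pbx2 (0.794), B3gnt3 (0.791), Rnf115 (0.782), Bscl2 (0.779), mt-Nd4l (0.774) and Gcnt1 (0.768) followed. These were the 10 highest values among all tested genes outside the set, picked by rank with no p-value, so a high rho here is a description only. Hp encodes haptoglobin, which binds free haemoglobin and is stored in neutrophil granules. mt-Nd4l, a mitochondrial gene, is among the transcripts that took a large share of reads in WT PBS 1 and WT cisplatin 3 and 4, and the part of that share in the member values was not tested.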

How the data were processed

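RNA of 16 end-stage tumours was sequenced as bulk libraries, 4 in each of 4 groups set by genotype (BdP or WT) and treatment (cisplatin or PBS). Per the submitters' processing notes, CASAVA, HISAT2 2.0.5 and featureCounts 1.5.0-p3 were used on GRCm38 (mm10), and whether counting used strand is not given in the sources used here. The authors deposited FPKM for 54532 genes with positions and lengths. FPKM times length was a whole multiple of 1 step for 100% of values in every library (tolerance 0.1 read), which gave the reads, and the implied divisor equalled their median-of-ratios size factor, so the values were not scaled again.

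Genes at 1 FPKM or more in at least 4 libraries (12319) were tested with limma 3.58.1 (R 4.3.3), in 1 fit of the 16 libraries to log2(FPKM + 1) with a mean-variance trend. The fold changes are on that scale, which understates changes of low genes. The 5 contrasts were BdP over WT within each treatment, cisplatin over PBS within each genotype and their interaction, with Benjamini-Hochberg adjustment over all genes and a call below 0.05. Single genes were also compared by exact two-sided permutation of mean log2(FPKM + 1). FPKM errors are SD and those of fold changes SE. All 10 members are named; from each other list the called genes, or else up to 3 with the smallest p, and the 10 genes most like the members, are named, and markers given by level alone were chosen after their values were seen. A gene that this rule names is not reported here. Date-like symbols (27) were put back by gene identifier. Promoter windows came from RefSeq (GRCm38.p6), which matched 10 of 10 members. The procedure was tested on simulated data. The alternatives were another pseudocount, other filters, TPM, voom on the recovered reads, weights for libraries, contrasts fitted on their own groups, a replicate block and leaving out libraries. The members and lists were chosen with earlier results of these data known.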

Additional observations from a re-analysis of the deposited data

Results flagged for a closer look

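The highest or lowest FPKM was tested for standing apart in 39 sets of 4 tumours. Each set was a member in a group, without the 1 set at 0 throughout. The cut used gives about 1 in 20 for independent values of a normal distribution. FPKM of members that vary together need not follow that, so the 10 values that stood apart are not set against a chance rate. The S100a9 values among them were 27.7 FPKM in BdP PBS 2, the highest of its group, 66.7 FPKM in WT cisplatin 4, the highest of its group, and 5.73 FPKM in WT PBS 4, the lowest of its group. Csf3r stood apart at 1.42 FPKM in BdP PBS 3, the lowest of its group. The highest of their groups were Trem1 at 2.49 FPKM in BdP cisplatin 3, Retnlg at 12.1 FPKM in WT PBS 1 (from 14 reads), Cd177 at 0.620 FPKM in WT PBS 3 and Hdc at 0.949 FPKM in WT PBS 3. Ly6g stood apart at 0.0425 FPKM in BdP PBS 3 (1 read) and at 0.271 FPKM in WT cisplatin 4 (3 reads), counts at or below the floor of 3 reads.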

How the results depend on the processing

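The count of members called was 0 in every contrast under every alternative, leaving out each library included (0 to 0), except that weights for libraries gave 1 for BdP over WT under cisplatin (S100a9, -1.30, adjusted p = 0.0427, where the other alternatives gave 0.0962 or above), a fit that called 943 of all genes there, against 132 without weights. S100a8 and S100a9 kept their sign in that contrast and for cisplatin over PBS in WT tumours under all alternatives run.

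Signs turned as follows, and in each case the cause was not tested. For BdP over WT under PBS, TPM gave 0.83 for S100a8, 0.79 for S100a9 and 0.38 for Retnlg, while the median of all genes shifted by 0.82 (0.70 for cisplatin over PBS in WT tumours, 0.15 for BdP over WT under cisplatin, -0.65 for the interaction). TPM without mitochondrial and haemoglobin genes gave 0.27 for S100a8 and 0.19 for S100a9, and voom 0.14 and 0.022. Weights for libraries turned Trem1 to -0.17 there. Without the 3 libraries richest in mitochondrial reads that contrast gave 0.12 for S100a8, 0.19 for Retnlg and -0.072 for Trem1. The same setting turned Csf3r to -0.064 for cisplatin over PBS in WT tumours and 0.29 for BdP over WT under cisplatin, and Trem1 to 0.0022 in the interaction. For cisplatin over PBS in BdP tumours, weights gave 0.016 for S100a8 and -0.0070 for Trem1, and voom -0.018 for Trem1. Leaving out 1 library gave ranges across 0 for cisplatin over PBS in BdP tumours (S100a8 -0.33 to 0.090, S100a9 -0.41 to 0.052, Retnlg -0.21 to 0.44, Trem1 -0.17 to 0.17) and for BdP over WT under PBS (S100a8 -0.48 to 0.12, S100a9 -0.62 to 0.0096, Retnlg -0.82 to 0.19, Trem1 -0.072 to 0.50).

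With the replicate number as a block, 0 members were called in every contrast. The block moved all calls to 81 for BdP over WT under PBS and 80 under cisplatin, against 122 and 132 without it. Deviations of same-numbered libraries correlated at -0.61 to 0.42 over 24 pairs (median 0.021, 9 over 0.1). Libraries of different numbers were not compared in this way, so these values cannot tell whether the numbers pair the samples. Depth limits Ly6g, Cxcr2, Cd177 and Lcn2 most, with 10 to 330 reads each over 16 libraries, and WT PBS 1 throughout.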
